A study of Mus musculus with 18 samples.

Results

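The 39 genes described here encode parts of nerve cells and of the synapses through which they signal, and they were taken by name from a list of neuron and synapse genes. They are defined by name alone, but the list was drawn up with earlier results of these data known. All 39 of 39 were found among the 18267 genes of the table of sorted CD11b+ cells, the 35842 genes of the Ras tumour table and the 35842 of the cell line table, and likewise among the 28625 genes of the 10x table and the 28474 of the Drop-seq table. They fall into 6 roles: 12 genes of vesicle fusion and release, 6 of the cytoskeleton, cell surface and neuronal identity, 6 glutamate receptor subunits, 6 postsynaptic kinases and scaffolds, 5 genes of transmitter identity and 4 of a GABA receptor and ion channels.

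A neuron releases transmitter when calcium makes synaptic vesicles fuse with the membrane of its ending. Proteins on the vesicle and on the membrane zip together for this step, and a calcium sensor on the vesicle sets it off. On the receiving side, glutamate opens AMPA and NMDA receptors that are held in place by scaffold proteins, while GABA, made by glutamate decarboxylase, inhibits the receiving cell. In a glioma these transcripts can come from neurons of the brain that the tumour has grown into or from tumour cells, since gliomas carry some of the same genes.

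The series set mouse gliomas of different driver genes side by side under PLX3397, an inhibitor of CSF1R, the receptor that macrophages and microglia need to survive. It holds 18 libraries from Boy/J mice. Bulk tissue of Ras-driven tumours came from 4 vehicle mice, also tagged as untreated, and 4 PLX3397 mice, dosed at 100 mg/kg by gavage each day from day 7 after implantation until they were moribund. CD11b+ cells, pulled with magnetic beads from dissociated PDGFB-driven tumours, came from 2 PLX3397 mice and 1 vehicle mouse, dosed at 100 mg/kg for 3 days from day 14. Cultured lines came from Ras tumours (n = 2, with EGF and FGF at 20 ng/mL) and from PDGF tumours (n = 3, with EGF, FGF, PDGFBB and PDGFAA at 20 ng/mL in another medium), so driver and medium cannot be told apart. An untreated tumour driven by HRasV12 and dominant negative p53 was profiled by 10x and another library by Drop-seq. The labels do not say which cells carried the drivers, whether a line is 1 clone or whether the lines came from separate mice, and over the lines p-values measure only the spread between these libraries.

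Bulk libraries held 26.8 to 35.8 M counts (M stands for units of 1e6). Levels below are counts per M of the library (CPM). Macrophage and microglia markers summed to 8482 to 11125 CPM in the CD11b+ libraries and to 4.45 to 135 CPM in the lines. Progenitor markers such as Sox2 and Nes summed to 1235 to 2736 CPM in the Ras tumours and 1023 to 5267 CPM in the lines. In the Ras tumours the library of vehicle mouse 4 stood apart from the other 7 in nearly every member, and values without it are given below.

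Sequences of 3 promoters are shown because their genes differ in the library of vehicle mouse 4, which stands apart in the tumour data. Syn1, which coats synaptic vesicles, stood there at 18.5% of the mean of the other vehicle mice, while Slc17a7 and Slc32a1, which load glutamate and GABA into vesicles, stood at 1.34% and 0.776%. The promoters are those of RefSeq on GRCm38.p6, which had an entry for 25 of the 39 members, and the 250 bases before the start were searched on both strands. Capitals mark the letters TTCAGCACC and TGACGTCA in Syn1, GGACAG and GGGCGG in Slc17a7 and GGACAG in Slc32a1, each on either strand. TTCAGCACC and GGACAG are stretches of the RE1 element bound by the neuronal repressor REST, TGACGTCA is the cAMP response element and GGGCGG is the core of a GC box.
Syn1, chrX:20921005-20921168, minus strand: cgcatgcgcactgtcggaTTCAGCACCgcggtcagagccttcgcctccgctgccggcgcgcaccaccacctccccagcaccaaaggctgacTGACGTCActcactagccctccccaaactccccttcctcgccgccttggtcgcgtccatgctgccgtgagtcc
Slc17a7, chr7:45163671-45163920, plus strand: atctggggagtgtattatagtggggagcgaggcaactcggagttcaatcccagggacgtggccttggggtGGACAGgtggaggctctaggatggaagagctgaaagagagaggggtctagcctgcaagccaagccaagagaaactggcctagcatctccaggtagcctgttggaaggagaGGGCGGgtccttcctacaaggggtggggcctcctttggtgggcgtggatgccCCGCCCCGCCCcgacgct
Slc32a1, chr2:158610508-158610757, plus strand: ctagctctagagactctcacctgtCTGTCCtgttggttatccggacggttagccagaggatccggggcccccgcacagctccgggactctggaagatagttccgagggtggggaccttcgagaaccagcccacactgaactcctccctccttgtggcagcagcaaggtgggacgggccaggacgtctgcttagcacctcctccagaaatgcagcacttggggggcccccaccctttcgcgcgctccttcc

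Syn1 (chromosome X) is printed only up to the start of its annotated gene, so 164 of the 250 bases are shown. It was the 1 member of the 25 with TTCAGCACC, at bases 232 to 224 before the start (0.348% of the 27025 genes with an entry), and the 1 with TGACGTCA, at bases 159 to 152 (1.77% of all genes). GGACAG stood in the promoters of 8 members (32% against 21.0% of all genes), at bases 180 to 175 in Slc17a7 and, on the other strand, at bases 226 to 221 in Slc32a1. GGGCGG stood in 14 members (56% against 35.4%), and in Slc17a7 its matches on the other strand, at bases 18 to 13 and 13 to 8, overlap. TATAAA was found in 4 members (16% against 14.3%). A match describes these letters only, and no binding was measured.

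The comparison of vehicle with PLX3397 in Ras tumours asks whether neuronal transcripts moved with the treatment, and the spread between mice was larger than the treatment difference for nearly all of them. By the edgeR quasi-likelihood test 0 of 39 members passed at an adjusted p under 0.05, beside a background of 0% of 18366 genes called higher and 0% called lower. Before adjustment, p was under 0.05 for 76 genes higher (0.414%) and 572 lower (3.11%), with 0 members among them. DESeq2 called 3 genes higher (0.0163%) and 166 lower (0.904%), again with 0 members. The log2 fold of PLX3397 over vehicle was above 0 in 36 members and below 0 in 3, with a median of 0.26, against 0.0015 over all genes. Vehicle and PLX3397 values overlapped in all 39 members. Over all genes tested, 0.599% did not overlap and were higher and 1.7% did not overlap and were lower. In bulk samples, fewer neurons in a piece of tissue and less RNA per neuron cannot be told apart.

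Snap25 (chromosome 2, 136713453 to 136782428 on GRCm38), the membrane partner in vesicle fusion, stood at 156, 599, 362 and 7.87 CPM in vehicle mice 1 to 4 and at 667, 220, 153 and 173 CPM in PLX3397 mice 1 to 4. Vehicle mouse 4 was lowest and PLX3397 mouse 1 highest, and the groups overlapped. The means were 281 ± 257 CPM under vehicle and 303 ± 244 under PLX3397 (SD, n = 4 each), and the log2 fold was 0.10 (SE 0.99). Syt1, the calcium sensor of fast release, stood at 103, 406, 305 and 5.05 CPM against 572, 199, 125 and 140 CPM. It followed the same order at both ends. Vamp2, the vesicle partner of Snap25, stood at 198, 407, 352 and 90.5 CPM under vehicle and 639, 260, 198 and 242 CPM under PLX3397. Syn1 stood at 89.9, 283, 191 and 34.8 CPM against 361, 136, 93.1 and 96.2 CPM. For Vamp2 and Syn1 the library of vehicle mouse 4 was again lowest, but it kept a larger part of the level of the other mice than for Snap25.

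Syt4, a synaptotagmin of neurons and glia, had the largest fold of the 39. It stood at 37.2, 63.2, 60.6 and 7.28 CPM under vehicle and 135, 56.5, 82.8 and 59.7 CPM under PLX3397. The fold was 0.99 (SE 0.58), with an adjusted p = 0.9998 by edgeR. PLX3397 mice 2 and 4 lay below vehicle mice 2 and 3, so the groups overlapped for this gene too. The other end of the range was Grin2a, an NMDA receptor subunit at the lowest length-corrected level of the list, with a fold of -0.44. It stood at 0.869, 5.52, 2.30 and 0.124 CPM under vehicle and 2.51, 1.88, 1.40 and 0.723 CPM under PLX3397.

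Of the postsynaptic genes, Camk2a, the kinase that strengthens glutamate synapses, stood at 297, 1218, 371 and 8.98 CPM under vehicle and 1063, 407, 223 and 200 CPM under PLX3397. Vehicle mouse 2 held the highest value and vehicle mouse 4 the lowest, so the whole range lay within the vehicle group. Nrgn, a calmodulin store of dendritic spines, stood at 172, 494, 154 and 4.68 CPM against 484, 180, 92.3 and 91.8 CPM. Grin1, the NMDA receptor subunit that every such receptor needs, stood at 43.2, 226, 127 and 1.43 CPM against 278, 77.8, 49.8 and 66.4 CPM. Gria1, an AMPA receptor subunit, stood at 34.2, 135, 129 and 2.35 CPM against 238, 77.3, 46.4 and 72.8 CPM. In Grin1 and Gria1 the library of PLX3397 mouse 1 was highest, as for the vesicle genes. Per kb of transcript, Nrgn held the highest mean level of the 39 under vehicle (142 ± 142 CPM per kb, SD, n = 4), then Nefl (75.6 ± 20.0), Vamp2 (68.8 ± 38.0) and Camk2a (63.5 ± 69.7), and these neighbours did not differ beyond their spread. Grin2a was lowest at 0.123 ± 0.133 CPM per kb, next to Grin2b, another NMDA receptor subunit, at 0.146 ± 0.122 and Slc17a6 at 0.499 ± 0.548.

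Of the genes of the cytoskeleton, cell surface and identity, Nefl, Nefm, Stmn2 and Thy1 varied less, while Nefh and Rbfox3 did not. Nefl (chromosome 14, 68083863 to 68089095), the light neurofilament chain, stood at 259, 318, 285 and 161 CPM under vehicle and 175, 204, 436 and 357 CPM under PLX3397. Nefm, the medium chain, stood at 237, 278, 261 and 174 CPM against 195, 178, 403 and 342 CPM. For both chains PLX3397 mouse 3 was highest, and the library of vehicle mouse 4 kept 56.2% and 67.1% of the mean of the other vehicle mice. Stmn2 (chromosome 3, 8509360 to 8561606), a regulator of axonal microtubules, stood at 64.7, 113, 77.6 and 40.7 CPM against 179, 87.7, 52.0 and 57.3 CPM. Thy1, a surface protein of neurons that other cells also carry, stood at 93.3, 221, 147 and 85.1 CPM against 319, 123, 126 and 132 CPM. Nefh, the heavy neurofilament chain, varied more, at 3.69, 25.2, 14.7 and 0.403 CPM against 24.3, 5.10, 3.32 and 6.78 CPM. Its highest library was 62.5-fold above its lowest. Rbfox3, the NeuN antigen of mature neurons, also varied more, at 31.2, 140, 77.4 and 1.36 CPM against 179, 56.8, 27.0 and 38.7 CPM.

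**Figure D1:**
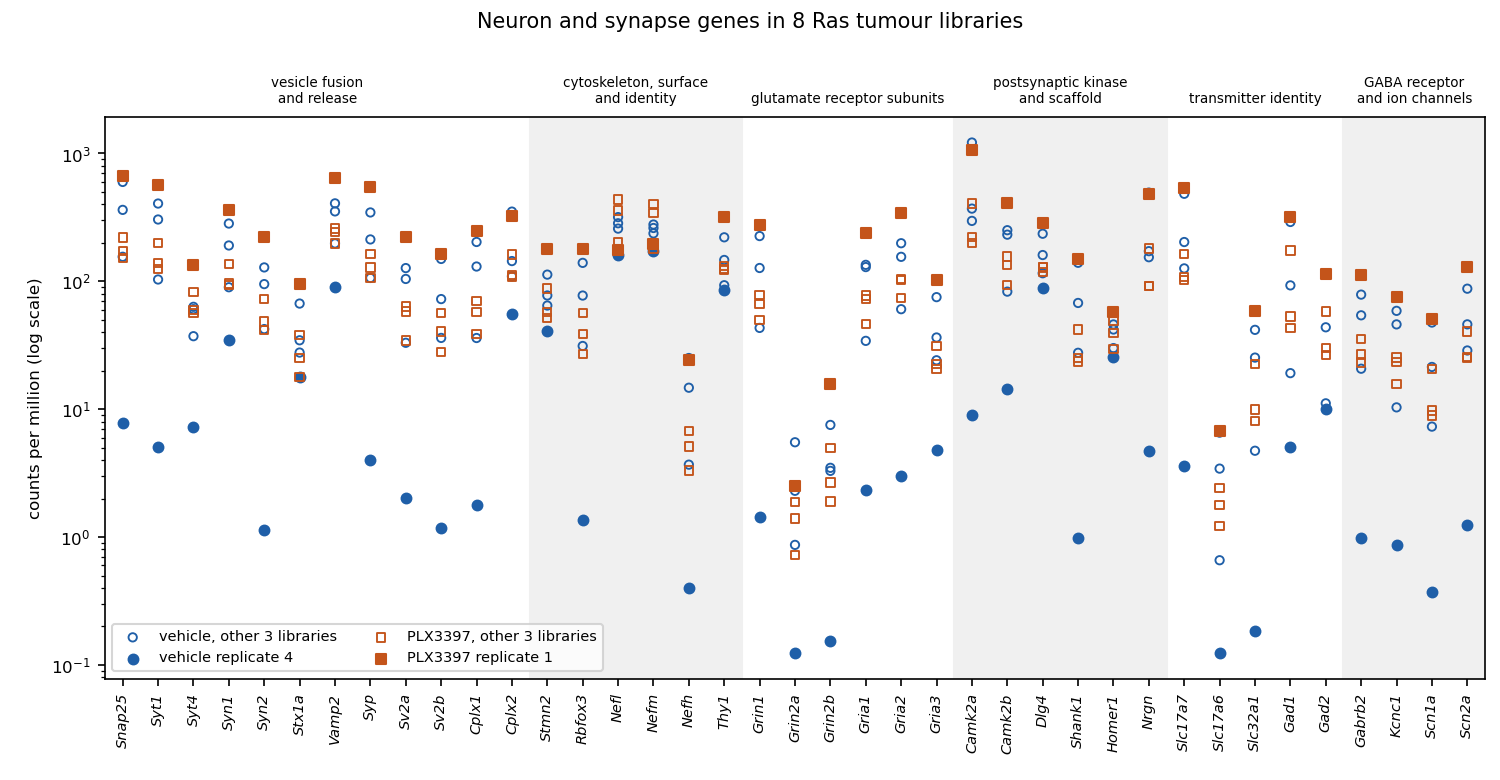
Levels of the 39 members (x axis, grouped by role) in the 8 Ras tumour libraries, in CPM on a log scale (y axis), with 1 point per library: circles for vehicle, squares for PLX3397, filled for vehicle mouse 4 and PLX3397 mouse 1. The filled circle is the lowest point for 38 of the 39 genes and the filled square the highest for 32.

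The same 2 libraries set the ends of most genes. The library of vehicle mouse 4 was the lowest of 8 in 38 of 39 members, where 31.4% of all genes had it lowest. The exception was Stx1a, a membrane syntaxin, at 17.9 CPM there and 17.8 CPM in PLX3397 mouse 4. The library of PLX3397 mouse 1 was the highest in 32 members, against 30.6% of all genes. Vehicle mouse 2 was highest in 5 (Cplx2, Nefh, Grin2a, Camk2a and Nrgn) and PLX3397 mouse 3 in 2 (Nefl and Nefm). The ratio of the highest to the lowest library was 313-fold for Slc32a1, 195-fold for Grin1, 149-fold for Slc17a7, 136-fold for Camk2a, 113-fold for Syt1 and 84.7-fold for Snap25. It was 10.4-fold for Syn1 and 2.25-fold for Homer1, a postsynaptic adaptor. The ratio of Slc32a1 rests on 0.186 CPM in the library of vehicle mouse 4, which held 32.3 M counts.

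The spread between mice of a group was set beside the treatment difference on log2 CPM with a prior count of 2, as the pooled standard deviation within the groups and the difference of the group means. The median spread of the 39 members was 2.01, against 0.37 over all 18366 genes, and 21 members had a spread of at least 2, as did 2.66% of all genes. The median difference of the members was 0.97 on this scale, which is larger than the median fold of 0.26 because a mean of logs gives the low library of vehicle mouse 4 more weight. The spread was larger than the size of the difference in 38 of 39 members and in 86.6% of all genes. Syt4 was the exception, with a difference of 1.26 and a spread of 1.06. For Snap25 the difference was 0.93 and the spread 2.04. Treatment took a median of 7.52% of the variance of a member and 6.19% of that of a gene overall. The median SD was 2.63 under vehicle and 1.04 under PLX3397, and this order rested on 1 library: without vehicle mouse 4 it was 0.98 under vehicle. Without PLX3397 mouse 1 it was 0.39 under PLX3397.

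By role, the median spread was 2.04 for vesicle genes, 1.91 for glutamate receptor subunits, 1.81 for postsynaptic kinases and scaffolds, 2.01 for transmitter identity, 2.05 for the GABA receptor and ion channels, and 0.66 for the cytoskeleton, surface and identity genes. Below a spread of 1 were 9 members, with Homer1 (0.39), Nefm (0.46), Nefl (0.53), Dlg4 (0.57), Thy1 (0.63) and Stmn2 (0.69) the lowest. Dlg4 encodes PSD-95, the main scaffold of glutamate synapses. The widest were Slc32a1 (2.49), Grin1 (2.37) and Shank1 (2.32), a scaffold beneath the receptors.

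**Figure D2:**
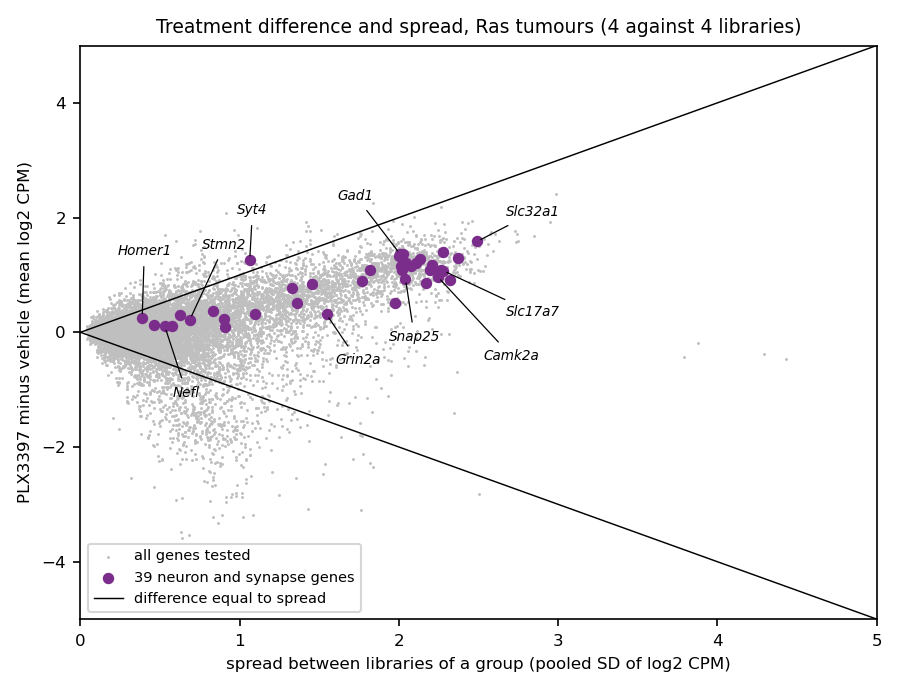
Difference of PLX3397 minus vehicle in mean log2 CPM (y axis) against the spread between mice of a group (pooled SD of log2 CPM, x axis) in the Ras tumours, for the 39 members (large points) and all genes tested (small points), with lines where both are equal in size. The members lie to the right, with a median spread of 2.01, and of the 39 only Syt4 falls outside the lines.

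The library of vehicle mouse 4 was not low in all members alike. Its level as a percentage of the mean of the other 3 vehicle mice had a median of 2.37% over the members and 90.7% over all genes, and 25 of 39 members were under 5%, as were 6.62% of all genes. The 11 members with at least 10 CPM in both cultured Ras lines kept a median of 13.6%, and the other 28 a median of 2.14%. Lowest was Slc32a1 at 0.776%, on a level of 0.186 CPM in that library. Highest were Nefm (67.1%), Homer1 (65.1%), Nefl (56.2%), Thy1 (55.4%), Dlg4 (51.9%), Stmn2 (47.8%) and Stx1a (41.4%). Of these, only Homer1 and Dlg4 belong to the 11, and Stmn2 was at most 0.408 CPM in the Ras lines. The ranges overlapped, at 1.29% to 65.1% for the 11 and 0.776% to 67.1% for the other 28. Of the 11 members with a level in both lines, Syn2 (1.29%), Sv2a (2.28%) and Kcnc1 (2.26%) were under 5%. In all, 33 members were at 10 CPM or more in every library but that of vehicle mouse 4, and 12 were at 10 CPM or more in it.

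Markers of other brain cells moved with these libraries. Vehicle mice 1 to 4 summed to 2792, 8181, 5226 and 869 CPM over the 39 members, and PLX3397 mice 1 to 4 to 10099, 3735, 3170 and 3448 CPM. For 8 neuron markers that are not members the sums were 1350, 3321, 2395 and 318 CPM against 5093, 1792, 1194 and 1617 CPM. For 8 oligodendrocyte markers, genes of the cells that wrap axons in myelin, they were 378, 910, 735 and 24.0 CPM against 1687, 751, 296 and 517 CPM. Both lists put vehicle mouse 4 lowest and PLX3397 mouse 1 highest, as the members did, and the order of the libraries between these ends was not the same in each list. Astrocyte markers gave 1446, 2960, 2313 and 440 CPM against 4122, 2541, 1324 and 1965 CPM, with the same libraries at the ends. Progenitor markers ran the other way, at 1771, 1238, 1795 and 2737 CPM against 1235, 1382, 1710 and 1728 CPM. The part of these cell types in the members' levels was not tested.

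Of 74 further genes of the neuronal pathway, 73 were tested, and 0 of these were called. Their median fold was 0.34 and their median spread 1.91, and the library of vehicle mouse 4 was the lowest for 67. By list the median fold was 0.23 for 16 other presynaptic genes, 0.32 for 16 other postsynaptic genes, 0.30 for 22 genes of axon, excitability and identity, 0.49 for 10 neuropeptide and interneuron genes and 0.58 for 9 tested genes of immature neurons. The further genes thus shared the wide spread and the low library of the 39.

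The direction of the treatment difference turned with single libraries. Without vehicle mouse 4 the median fold was -0.04, with 19 members above 0 and 20 below. On the log2 CPM scale the median difference was then -0.08, with 11 of 39 members above 0, and the median spread fell to 1.00. Without PLX3397 mouse 1 the median fold was -0.40, with 4 members above 0 and 35 below. Without vehicle mouse 2 it was 0.90, with all 39 above 0. With vehicle mouse 4 and PLX3397 mouse 1 both left out, a choice made after the values were seen, the median fold was -0.79 and 0 members were called. The spread was then larger than the difference in 27 of 39 members, against 68.7% of all genes. In none of these fits was a member called by edgeR, and Syt4 kept a fold above 0 in each.

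The genes that tell the transmitter of a neuron varied from mouse to mouse in their ratio as well as in their level. Slc17a7 (chromosome 7, 45163949 to 45176142), the vesicular glutamate transporter of cortical neurons, stood at 126, 484, 203 and 3.62 CPM under vehicle and 541, 163, 109 and 103 CPM under PLX3397. Gad1 (chromosome 2, 70553072 to 70602014), which makes GABA, stood at 19.2, 93.0, 291 and 5.05 CPM against 317, 43.1, 53.2 and 174 CPM. Gad1 was thus high in vehicle mouse 3 and PLX3397 mouse 4, where Slc17a7 was not. Gad2, the other glutamate decarboxylase, stood at 11.1, 43.7, 113 and 10.1 CPM against 114, 26.5, 30.2 and 58.1 CPM. Slc32a1, the vesicular GABA transporter, stood at 4.74, 25.3, 41.8 and 0.186 CPM against 58.2, 9.96, 8.13 and 22.7 CPM. Slc17a6, the glutamate transporter typical of neurons below the cortex, was at most 6.80 CPM.

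The ratio of Gad1 to Slc17a7 was 0.152, 0.192, 1.44 and 1.39 in vehicle mice 1 to 4 and 0.586, 0.264, 0.49 and 1.69 in PLX3397 mice 1 to 4. Each group held libraries on either side of 1, and the groups overlapped. The ratio of Slc32a1 to Slc17a7 was 0.0375, 0.0524, 0.206 and 0.0513 against 0.108, 0.061, 0.0748 and 0.221. The ratio of Gad2 to Slc17a7 was 0.0880, 0.0903, 0.557 and 2.78 against 0.211, 0.162, 0.278 and 0.565. Vehicle mouse 3 and PLX3397 mouse 4 were high in all 3 ratios, while vehicle mouse 4 was high in those that use Gad1 and Gad2. In the ratio of Slc32a1, vehicle mouse 4 lay between vehicle mice 1 and 2, on only 0.186 CPM of Slc32a1. Gad1 was also found in the cultured Ras lines (4.86 and 16.3 CPM) and Slc32a1 was under 0.1 CPM there. The means of Slc17a7 were 204 ± 204 and 229 ± 210 CPM (SD, n = 4 each; log2 fold 0.15, SE 1.08), and those of Gad1 were 102 ± 132 and 147 ± 128 CPM.

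**Figure D3:**
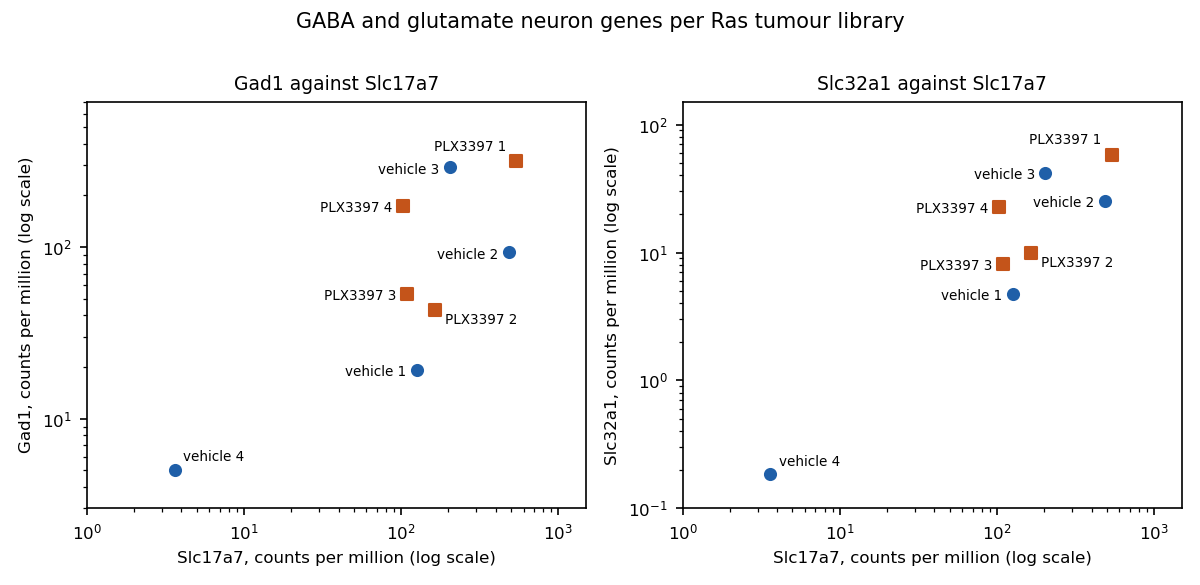
CPM of Slc17a7 (x axis, log scale) against CPM of Gad1 and of Slc32a1 (y axes, log scale) in the 8 Ras tumour libraries, 1 point per mouse, coloured by treatment. Vehicle mouse 3 and PLX3397 mouse 4 have much Gad1 and Slc32a1 for their Slc17a7, and vehicle mouse 4 sits alone at the low end with 3.62 CPM of Slc17a7.

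In CD11b+ cells of PDGFB tumours most members were low, and 8 were called higher after 3 days of PLX3397. After the filter on low counts 31 members were tested and 8 were not (Sv2b, Grin1, Grin2a, Grin2b, Slc17a6, Gabrb2, Kcnc1 and Scn1a). Of the 31, 25 were at or above the limit of the filter (0.333 CPM) in the vehicle library, and 7 of these were called higher. The other 6 (Syt1, Rbfox3, Slc17a7, Slc32a1, Gad1 and Scn2a) passed only through the PLX3397 libraries, where they were higher, and the call of the 1 among them, Rbfox3, is a description only. The 8 called higher stand beside a background of 4.57% of 15052 genes called higher, and 0 members were called lower, beside 1.78%. DESeq2 called 7 of the 31 higher (9.35% of all genes) and 0 lower (3.73%). The fit has 1 residual degree of freedom and rests on 1 vehicle library, which is assumed to vary like the PLX3397 libraries.

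Nefl was measured at 16.6 CPM under vehicle and at 82.8 and 94.5 CPM in the PLX3397 mice, a log2 fold of 2.35 (SE 0.18, adjusted p = 0.0305 by edgeR). Nefm stood at 12.7 CPM against 47.7 and 48.7 CPM (1.86, SE 0.17, adjusted p = 0.0305 by edgeR). Both neurofilament chains were thus clearly present in the vehicle library as well, and the PLX3397 libraries were close to each other. Stmn2 rose from 0.972 CPM to 6.98 and 5.96 CPM, by a log2 fold of 2.66 (SE 0.40, adjusted p = 0.0415 by edgeR). Camk2a rose from 5.73 CPM to 19.3 and 17.9 CPM (1.63, SE 0.23, adjusted p = 0.0375 by edgeR) and Nrgn from 0.972 to 5.34 and 4.66 CPM (2.29, SE 0.42, adjusted p = 0.0498 by edgeR). These are an axonal gene and a pair of dendritic genes. Syt4 rose from 0.648 CPM to 5.83 and 4.59 CPM (2.93, SE 0.46, adjusted p = 0.0435 by edgeR). Cplx2, a complexin that clamps vesicle fusion, rose from 7.94 CPM to 29.0 and 26.9 CPM (1.75, SE 0.20, adjusted p = 0.0345 by edgeR). For each of these genes both PLX3397 libraries lay well above the vehicle library. Rbfox3 had 0 counts in the vehicle library and 0.896 and 0.765 CPM under PLX3397, which is at least 8.55-fold higher against a floor of 3 counts in that library (0.0972 CPM). No p is given for it, since it entered the test only through its high libraries.

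Snap25, Syt1, Slc17a7 and Gad1, which mark neurons or their transmitter, did not pass the test. Snap25 was measured at 0.389 CPM under vehicle and at 2.20 and 1.07 CPM with PLX3397, a fold of 1.99 (SE 0.73, adjusted p = 0.155 by edgeR). Syt1 stood at 0.324 CPM against 1.68 and 0.333 CPM, so that 1 PLX3397 library was at the vehicle level. Slc17a7 stood at 0.292 CPM against 1.98 and 0.965 CPM, and Gad1 at 0.227 CPM against 0.299 and 0.566 CPM. These 4 stayed within a few CPM. Vamp2, which many cells use to fuse vesicles, was level at 58.6 CPM against 57.3 and 63.7 CPM. Dlg4 stood at 19.7 CPM against 35.5 and 36.1 CPM, and Nefh at 0.583 CPM against 0.187 and 0.333 CPM. The fold was above 0 in 28 of the 31 members tested, with a median of 1.62, also with Rbfox3 at its bound, against 0.0066 over all genes. For the 25 members with a level in the vehicle library it was above 0 in 22, also with a median of 1.62. Both PLX3397 libraries were above the vehicle library in 27 of 31 members and below it in 1 (Nefh). With 1 library against 2 this is common: 46.6% of all genes were higher in both and 36.4% lower in both. The 27 include the 6 members that passed the filter only through the PLX3397 libraries, and for those 6 the order is a description only. Without the filter, 10 of 39 members were called higher and 0 lower, beside 7.11% and 3.33% of all genes.

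**Figure D4:**
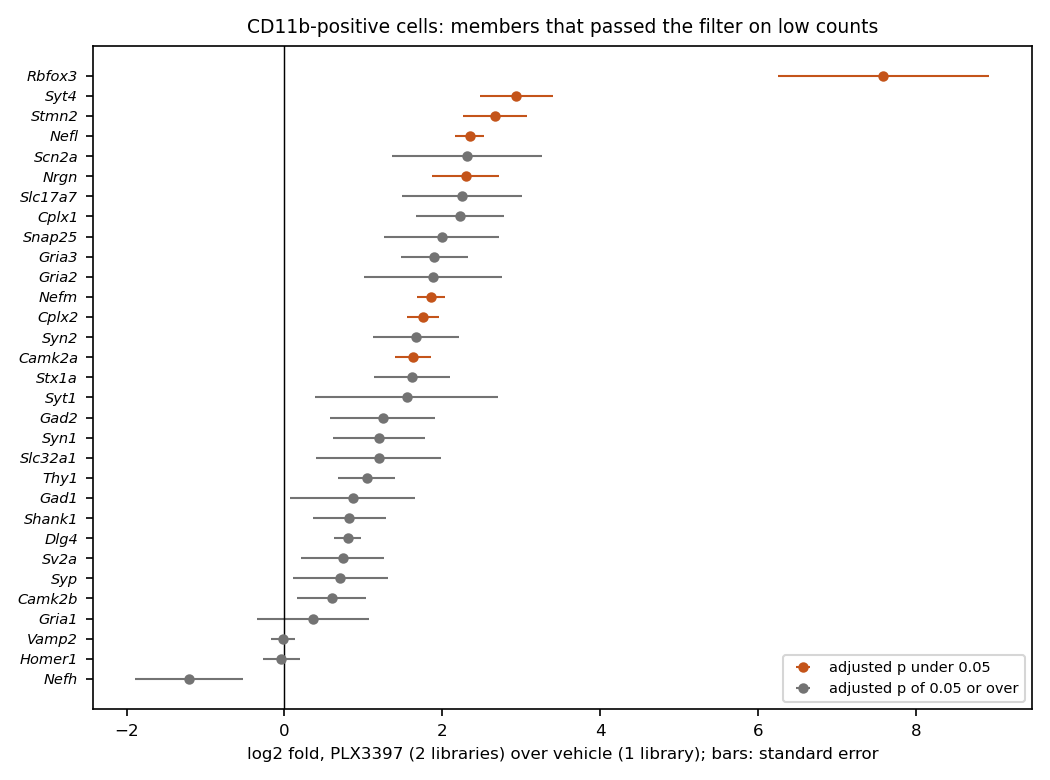
Fitted log2 fold of PLX3397 (2 libraries) over vehicle (1 library) in CD11b+ cells of PDGFB tumours (x axis) for the 31 members tested (y axis), with bars for the standard error and the 8 members called by edgeR in orange. Most members lie above 0, and the point of Rbfox3 depends on the fit, since its vehicle library had 0 counts.

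Markers of several cell types that the beads were not meant to keep were also higher in the PLX3397 libraries. Astrocyte markers summed to 125 CPM in the vehicle library and to 738 and 698 CPM under PLX3397, and 6 of 8 were called higher. Oligodendrocyte markers summed to 114 CPM against 415 and 302 CPM, with 4 of 8 called higher. Oligodendrocyte precursor markers summed to 29.1 CPM against 123 and 134.5 CPM, with 3 of 8 called higher, and progenitor markers to 169 CPM against 528 and 930 CPM. Each of these 4 lists lay above the vehicle library in both PLX3397 libraries. The 8 neuron markers that are not members went the other way as a sum, at 270 CPM against 231 and 235 CPM, although 2 of them were called higher and 0 lower. Fibroblast markers summed to 182 CPM against 676 and 1232 CPM. Erythroid, T or NK cell and B cell markers were not higher as lists. Their median log2 folds were -1.72, -0.043 and -0.24 over 4, 7 and 3 tested genes, with 0 called. Macrophage and microglia markers summed to 9802 CPM against 11125 and 8482 CPM, and Itgam, the gene of CD11b itself, stood at 1158 CPM against a mean of 708 CPM (log2 fold -0.78, adjusted p = 0.14 by edgeR). The part of these cells in the rise of the members was not tested. Of the 61 further neuronal genes tested, 9 rose and 0 fell, with a median fold of 1.85, among them Map2 (2.35) and Tubb3 (2.12), which build the neuronal cytoskeleton, Dnm1 (2.23), which recycles vesicle membrane, and Dlgap1 (2.98), a postsynaptic scaffold.

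Cultured tumour cells carried some members at high levels. Of the 39, 20 were at 10 CPM or more in all 3 PDGF lines and 11 in both Ras lines, while 7 were under 1 CPM in all 5 lines. Gria2, the AMPA receptor subunit that limits calcium entry, stood at 4.08 and 225 CPM in Ras lines 1 and 2 and at 729, 316 and 493 CPM in the PDGF lines. The Ras lines thus differed from each other far more than the PDGF lines did. Cplx2 stood at 609 and 83.2 CPM against 51.1, 41.0 and 42.9 CPM, with the high value in the other Ras line. Between the Ras lines 26 members differed by over 2-fold and 9 by over 10-fold, and 27 were higher in line 2.

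The comparison of Ras with PDGF lines asks how the drivers differ in culture. Of 35 members tested, 0 were called by edgeR in either direction, beside a background of 0% of 17475 genes each way. Before adjustment, p was under 0.05 for 3 members higher in the Ras lines (8.8% of all genes) and 9 lower (7.46%). DESeq2 called 3 members higher and 8 lower, beside 5.96% and 6.12% of all genes. The median fold of Ras over PDGF lines was -1.27, with 9 members above 0 and 26 below. Ras lines lay below all PDGF lines in 19 members (22.2% of all genes) and above them in 3 (Cplx2, Camk2a and Kcnc1, 15.5% of all genes). Slc17a7 and Grin2b, at most 0.224 and 0.220 CPM in the Ras lines, passed the filter on low counts only through the PDGF lines. Within these counts they are a description only.

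Gad1 stood at 4.86 and 16.3 CPM in the Ras lines and at 85.1, 110.4 and 110.7 CPM in the PDGF lines, a fold of -3.24 (SE 0.57, adjusted p = 0.209 by edgeR). Shank1 stood at 1.26 and 1.57 CPM against 10.5, 16.6 and 13.9 CPM (-3.21, SE 0.41, adjusted p = 0.204 by edgeR). Syp, a vesicle membrane protein, stood at 3.27 and 6.30 CPM against 43.6, 29.9 and 49.98 CPM (-3.06, SE 0.42). In these genes every Ras line was lower than every PDGF line by a wide gap. Vamp2 stood at 84.6 and 102 CPM against 222, 231 and 214 CPM (-1.19, SE 0.16), and Syn2, a second synapsin, at 44.1 and 68.8 CPM against 119, 130 and 149 CPM. Kcnc1, a fast potassium channel, went the other way, at 111 and 207 CPM against 45.1, 18.6 and 53.4 CPM (2.08, SE 0.51). Nefl stood at 26.3 and 0.596 CPM against 0.352, 0.489 and 0.701 CPM, and its fold of 4.84 (SE 1.53) came from Ras line 1. Without Ras line 2 the edgeR test called 3 members higher (5.45% of all genes) and 14 lower (5.68%), with a median fold of -2.23. The Ras arm is then 1 library, which is assumed to vary like the PDGF lines. With each other line left out it called 0.

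Vehicle Ras tumours were set beside the same Ras lines to compare the members in tissue and in culture. Tumour and line tables were counted apart, so that tissue and table cannot be told apart, and the comparison shares its libraries with those above. Stmn2 was the 1 member called higher in the tumours, beside a background of 5.63% of 19141 genes, and 0 were called lower, beside 2.64%. It stood at 64.7, 113, 77.6 and 40.7 CPM in the tumours and at 0.335 and 0.408 CPM in the lines (log2 fold 7.58, SE 0.57, adjusted p = 0.00425 by edgeR). Even the library of vehicle mouse 4 was far above both lines. Slc17a7, Slc17a6, Slc32a1, Nefh, Grin2a and Grin2b were under 0.3 CPM in both lines, below the limit of the filter on low counts. They passed it only through the tumour libraries, so they are a description only, also within the counts below. Slc17a7 had a fold of 9.85, and no p is given for it. Rbfox3, under 0.4 CPM in both lines, had a fold of 7.37 (adjusted p = 0.0775 by edgeR). Camk2a, at 1.03 and 3.36 CPM in the lines, had a fold of 7.72 (adjusted p = 0.0825 by edgeR), and Thy1, at 0.698 and 9.57 CPM, one of 4.74 (adjusted p = 0.0599 by edgeR). The groups did not overlap in 15 members with the tumours higher (23.5% of all genes) and in 1, Kcnc1, with the lines higher (17.3%). Kcnc1 had a fold of -2.51 and an adjusted p = 0.24 by edgeR. Without vehicle mouse 4 the count called higher was 15 (7.32% of all genes). It was 4 without Ras line 1 (11.9%) and 4 without Ras line 2 (4.77%), where the lone line is assumed to vary like the tumours. By DESeq2 it was 23 (16.6%), with 0 lower (9.1%). Cplx2 (-1.17), Gria3 (-1.28), Syt4 (-0.85) and Homer1 (-0.05) had folds below 0 and did not pass the test.

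**Figure D5:**
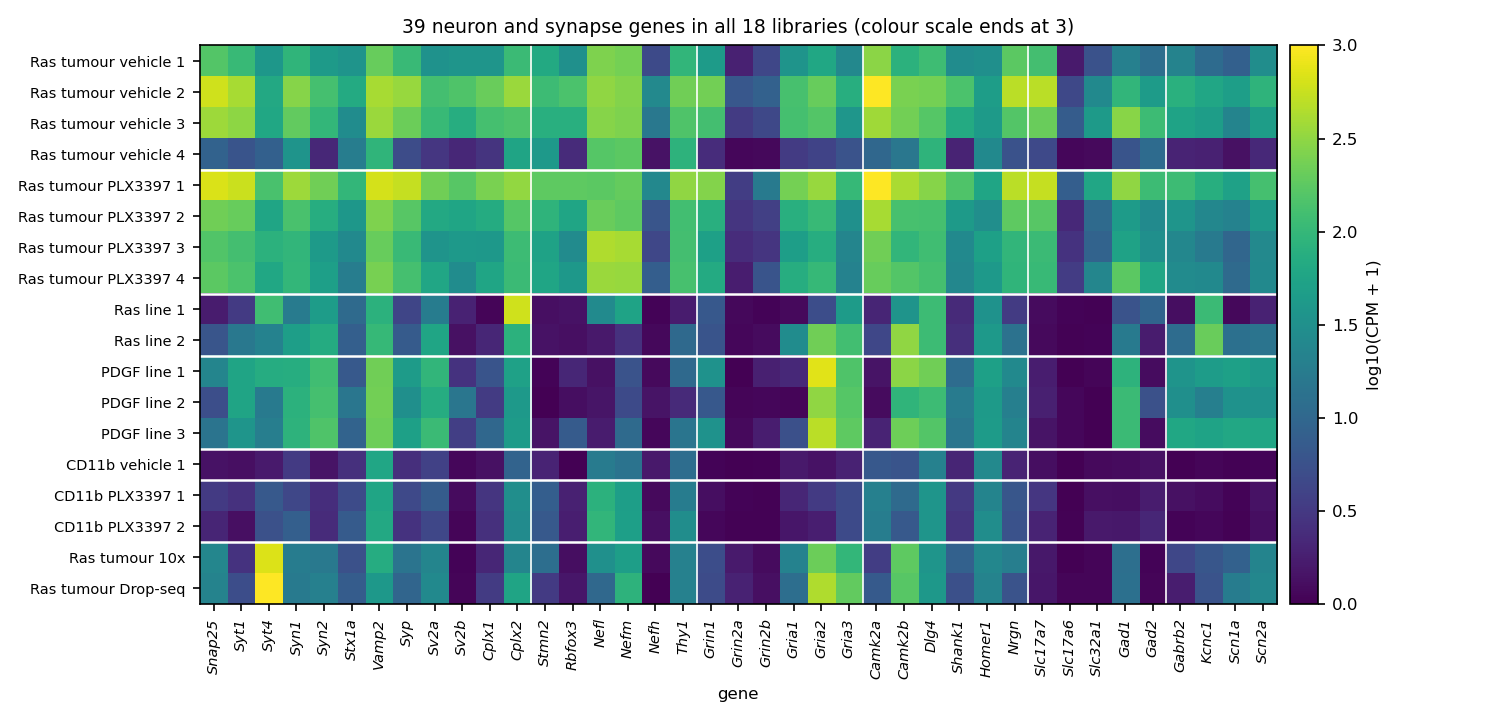
Level of the 39 members (x axis, in order of role) in all 18 libraries (y axis), as log10 of CPM plus 1 by colour, with levels above the top of the scale drawn at its end. Stmn2, Slc17a7 and Slc32a1 are dark in the 5 lines and brighter in most Ras tumours, Slc32a1 the least of them, while Syt4, Gria3, Homer1 and Dlg4 have levels in both.

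In single cells of a Ras tumour most member transcripts came from a few genes. After filters the 10x library held 3320 barcodes with a median of 8351 UMIs (molecules counted by their unique identifiers) and the Drop-seq library 4901 barcodes with a median of 1396 UMIs, and they shared 0 barcodes. Syt4, Gria2 and Camk2b made up 66.1% of the UMIs of all members by 10x and 70.9% by Drop-seq. Each technique has 1 library, so no test was run. Intervals are exact 95% intervals and cover counting error only.

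Syt4 had 38236 UMIs by 10x, or 699 CPM, in 63.3% of barcodes (61.6% to 65.0%), and 9532 UMIs by Drop-seq, or 998 CPM, in 45.2% (43.8% to 46.6%). Macrophage or microglia-like barcodes, for which Syt4 is no marker, had a UMI of Syt4 in 44.8% by 10x (median depth 5160.5 UMIs) and 16.02% by Drop-seq, at 155 and 158 CPM. The level in the unnamed cluster 8 of the 10x library, led by Trnp1 and Matn4, was 1410 CPM, with a UMI in 92.2% of barcodes at a median depth of 22784 UMIs. Shares of barcodes thus moved with depth, and the CPM differed in the same direction. Gria2 was found in 46.3% of 10x barcodes at 211 CPM and in 44.5% of Drop-seq barcodes at 444 CPM. It was in 14.4% of macrophage or microglia-like barcodes and 94.9% of cluster 8 by 10x. Camk2b, a kinase subunit beside Camk2a, was in 53.5% of 10x barcodes at 182 CPM. With each 10x barcode thinned to 1000 UMIs, over the 2869 barcodes deep enough, the shares were 28.2% for Syt4 and 15.3% for Gria2.

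Other members were highest in 1 cluster, with UMIs in others too. In the 10x library Nefl and Nefm were highest in cluster 7 (240 barcodes, led by Klk7, Nppb and Crabp2 and also by Nefl), at 438 and 416 CPM, with UMIs in 46 and 115 of its barcodes. Outside it 138 barcodes had a UMI of Nefl and 500 one of Nefm, at lower levels. Stmn2 was highest there too, at 132 CPM. In the Drop-seq library Nefm was highest in cluster 2, led by Nppb and Scg2, at 580 CPM, and Nefl at 112 CPM. The cluster high in neurofilament transcripts therefore shared Nppb as a leading gene in both techniques, and it was left unnamed because it held under 3 markers of any list. Thy1 was highest at 455 CPM in 10x cluster 6, led by the matrix genes Dcn and Col1a1 with the endothelial gene Cldn5, and at 997 CPM in Drop-seq cluster 5, which was also led by Col1a1. Nrgn was highest in 10x cluster 3, led by the platelet genes Ppbp and Gp9, at 439 CPM, where 454 UMIs came from 11 of 550 barcodes.

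Several genes that mark mature neurons had few UMIs in the dissociated cells. Slc17a7 had 31 UMIs in the whole filtered 10x library (0.567 CPM), Rbfox3 16, Nefh 10, Slc32a1 6, Gad2 4, Sv2b 4 and Slc17a6 1. In the Drop-seq library Nefh had 0 UMIs in 4901 barcodes. By the exact 95% interval this allows a share of up to 0.0752% of barcodes with a UMI. It sets no limit on the cells that express Nefh at this depth. A UMI was found in under 1% of barcodes for 9 members by 10x and 19 by Drop-seq, and the 9 were among the 19. Barcodes with UMIs of at least 5 of 12 core neuron members (Snap25, Syt1, Rbfox3, Slc17a7, Slc17a6, Slc32a1, Gad1, Gad2, Camk2a, Stmn2, Nrgn and Grin1) numbered 12 of 3320 by 10x and 1 of 4901 by Drop-seq. Of these core genes Snap25 was the most widespread by 10x, in 17.7% of barcodes at 22.9 CPM, against 4.72% of macrophage or microglia-like barcodes, and it was at 20.9 CPM by Drop-seq. Gad1 followed, in 12.2% of 10x barcodes at 11.4 CPM.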

How the data were processed

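Gene expression was measured in 16 bulk and 2 single-cell libraries. The authors deposited raw counts for bulk libraries and UMI counts per gene and barcode for single cells. The submitters' processing notes list STAR 2.6.1e and featureCounts 1.6.2, beside cutadapt 1.9.1 with Trim Galore 0.4.2, FastQC 0.11.7 and Cell Ranger, with GRCm38 as the build. What each tool did and whether strand was used are not given in the sources used here. Per the labels, libraries of tumours and lines were made for DNB-seq and those of CD11b+ cells with a Nextera kit.

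The members and the other lists were chosen with earlier results of these data known. Gene names that had become dates, 27 in the tumour table and 27 in that of the lines, were dropped with up to 0.281% and 0.360% of the counts, as was 1 unnamed entry of the CD11b+ table, and 5 columns of the line table that matched no sample were not used. Scn2a was listed as Scn2a1 in those tables. Of counts from 1 to 10, 62.8% to 69.4% were even in the tumour and line tables, against 39.9% to 41.9% in the CD11b+ table, and the cause was not tested.

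Each bulk comparison was fitted alone on its own groups with edgeR 4.0.16 (quasi-likelihood, TMM, default filter on low counts, robust) in R 4.3.3, with Benjamini-Hochberg adjustment over all genes tested and a threshold of 0.05. The scripts were tested on simulated data. Folds are log2 values; printed levels are CPM on plain library totals, and CPM per kb uses GENCODE M21 exon lengths. Alternatives were DESeq2 1.42.0, its size factors in edgeR, no filter, each library left out, the replicate number as a block and detection of Ddx3y as a term. Ddx3y, a gene of the Y chromosome, stood at 19.5 to 33.2 CPM in Ras tumour mice 1 and 2 of each group. In mice 3 and 4 of each group it was at most 0.124 CPM. Ras tumour mice are numbered here by their sample titles, and most deposited columns carry other numbers. A number shared between the groups thus marks no known pair. Same-numbered Ras tumour mice of the groups did not deviate together in every pair (r = 0.114, 0.132, -0.42 and 0.45), and the numbers were not treated as pairs. Overlap of groups was judged on CPM of plain library totals.

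Of 4384 barcodes by 10x, those with 500 UMIs, 300 genes and a mitochondrial share up to 20% were kept. Of 5000 by Drop-seq, the limits were 300 UMIs, 200 genes and the same share. They were clustered with scanpy 1.11.5 (Leiden, resolution 0.5, 2000 variable genes, 30 components, 15 neighbours). Scrublet marked 0 and 3 doublets at its automatic threshold. Whether that threshold fits these libraries was not tested, and no barcode was removed as a doublet. A cluster was named from its marker lists only where at least 3 markers and 1 of its 10 leading genes bore the name out. Shares have Clopper-Pearson 95% intervals.

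Values are given for 7 core genes (Snap25, Syt1, Stmn2, Rbfox3, Camk2a, Slc17a7 and Gad1), the 2 members of each role with the highest level, members called, the ends of the range of folds and up to 6 members whose groups did not overlap. Outside this rule, and chosen after their values were seen, are values of further members in comparisons where the rule does not reach them. They are Slc32a1, Gad2, Slc17a6, Stx1a, Homer1, Dlg4, Nefm, Nefh, Kcnc1, Shank1, Syn2, Sv2a, Cplx2, Gria3, Syt4 and Grin2b. In the single cells the rule gave only the members with most UMIs and those with no UMI. Values there of Thy1, Nrgn, Stmn2, Sv2b, Rbfox3, Slc17a7 and Gad1 are outside it. So are Nefl and Snap25 by Drop-seq and Itgam in CD11b+ cells. The library of vehicle mouse 4 was left out together with that of PLX3397 mouse 1 as an alternative added after seeing the data.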

Additional observations from a re-analysis of the deposited data

Results flagged for a closer look

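In 10 of the genes named above the library of PLX3397 mouse 1 lay farther from the other PLX3397 Ras tumours than Dixon's test allows at 95% for 4 samples. In all, 36 gene and group pairs were tested over vehicle and PLX3397, and chance gives about 1 in 20. All 10 flagged pairs were of PLX3397 mouse 1, and no vehicle pair was flagged. The test used CPM without logs, which leaves a low library little room to be flagged. The pairs are not independent, since they share the library. Snap25 was at 667 CPM there against 153 to 220 CPM in the other mice, Syt1 at 572 against 125 to 199, and Slc17a7 at 540.5 against 103 to 163. Vamp2 was at 639 CPM against 198 to 260 CPM, Syn1 at 361 against 93.1 to 136, and Thy1 at 319 against 123 to 132. The receptor and channel genes were Gria1 at 237.5 CPM against 46.4 to 77.3 CPM, Grin1 at 278 against 49.8 to 77.8, Gabrb2 at 112 against 23.2 to 35.4, and Scn2a, a sodium channel, at 129 against 25.1 to 40.5. In that library oligodendrocyte markers summed to 1687 CPM and astrocyte markers to 4122 CPM, the highest of the 8 Ras tumour libraries for both lists, and their part in these values was not tested.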

How the results depend on the processing

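Folds are log2 values. In the Ras tumours, ranges over the libraries left out in turn crossed 0 for Snap25 (-0.63 to 0.81), Syt1 (-0.40 to 0.93), Stmn2 (-0.19 to 0.60), Rbfox3 (-0.61 to 1.05), Camk2a (-0.78 to 1.08), Slc17a7 (-0.71 to 1.05), Gad1 (-0.15 to 1.88), Vamp2 (-0.18 to 0.64), Syn1 (-0.47 to 0.70), Nefl (-0.092 to 0.37), Thy1 (-0.12 to 0.66), Gria1 (-0.19 to 0.99), Grin1 (-0.62 to 1.06), Grin2a (-0.83 to 0.58), Nrgn (-0.77 to 0.94), Gabrb2 (-0.44 to 0.98) and Scn2a (-0.43 to 1.12). With vehicle mouse 4 and PLX3397 mouse 1 both left out, chosen after seeing the data, the folds were -1.03 for Snap25, -0.81 for Syt1, -0.37 for Stmn2, -1.02 for Rbfox3, -1.12 for Slc17a7, -0.55 for Gad1, -0.45 for Vamp2, -0.79 for Syn1, -0.27 for Thy1, -0.59 for Gria1, -1.03 for Grin1, -1.18 for Nrgn, -0.85 for Gabrb2 and -0.84 for Scn2a. With the replicate number as a block the median fold of the members was 0.86 and Camk2a (0.82) and Grin2a (0.29) turned, and with Ddx3y as a term Camk2a was at 0.069. The block called 0 members in the Ras tumours and 0 in the lines, where its median was -1.23, and no tumour correlated best with its own number. No member was called in the Ras tumours under any setting run.

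In the lines, ranges over the libraries left out were -2.41 to 0.64 for Camk2b, -1.32 to 4.17 for Gad2, -1.89 to 3.23 for Nefm and -3.43 to 0.23 for Thy1. The median of the members ran from -2.23 to -1.04, the count called higher from 0 to 3 and the count called lower from 0 to 14, and DESeq2 called 3 and 8. Between vehicle tumours and Ras lines, Cplx2 ran from -2.01 to 0.98 and the count called higher from 1 to 15, and DESeq2 called 23. In the 10x library thinned to 1000 UMIs, 21 members had a UMI in under 1% of barcodes. The causes of these changes were not tested, beyond the fewer libraries or UMIs of each setting. No library could be left out of the CD11b+ comparison, as no residual degree of freedom would remain.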

Other observations

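Genes of immature neurons, which are no members, were summed as a further list of 10 (among them Dcx, a microtubule protein of migrating neurons, and Sox11, a factor of newborn neurons). Their sum was 66.0 and 405 CPM in Ras lines 1 and 2 and 469, 228 and 473 CPM in the PDGF lines, so that Ras line 2 lay among the PDGF lines and Ras line 1 below them. In the Ras tumours it was 62.0, 158, 150 and 23.0 CPM under vehicle and 290, 90.4, 71.6 and 106 CPM under PLX3397. Vehicle mouse 4 was again lowest and PLX3397 mouse 1 highest. Sox11 had a fold of -3.29 (SE 0.76) between vehicle tumours and Ras lines, with an adjusted p = 0.053 by edgeR, which did not pass the test.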
